A study of Mus musculus with 12 samples.

Results

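The genes of the proteasome were described in mouse brown adipose tissue, the fat that burns fuel to make heat, across a knockout and a short cold exposure. The members were the genes whose symbol starts with Psma, Psmb, Psmc, Psmd, Psme, Psmf or Psmg and a digit, measured by a probe set that carries that symbol alone, with the brightest probe set kept for each gene. This gave 49 of the 22180 genes on the array, of which 46 are described together and Psmb8, Psmb9 and Psmb10, the subunits of the immunoproteasome, apart. Names and not levels chose them. Psmc3ip, a partner of meiotic recombination proteins, and Psme3ip1, a binding partner of Psme3, fit the naming pattern but are not subunits.

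RNA came from male mice of 10 weeks with a knockout of Zbtb7b (KO), a zinc finger transcription factor, or from wild-type mice (WT). There were 4 groups of 3 arrays, namely KO at 4 °C for 4 h (KO cold), KO at 22 °C (KO at room temperature), WT at 4 °C for 4 h (WT cold) and WT at 22 °C (WT at room temperature), all on standard chow. The labels do not say which cells carry the deletion. Titles call the arrays biological replicates while a second field numbers pools and names liver and a different knockout, so the number of animals behind an array is not known and p-values measure the spread between these arrays.

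The proteasome cuts ubiquitin-tagged proteins into peptides. A core barrel is built from alpha rings, which gate the entrance, and beta rings, which hold the cutting sites. A regulatory particle caps the barrel, and in it a ring of ATPases unfolds the protein while non-ATPase subunits bind and remove ubiquitin. In brown fat of mice, cold is known to raise proteasome activity, and the transcription factor Nfe2l1 is known there to drive proteasome genes.

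Zbtb7b itself had log2 signals of 2.96, 3.38 and 3.01 in KO cold, 3.62, 3.50 and 3.30 in KO at room temperature, 4.36, 4.26 and 4.63 in WT cold, and 4.47, 4.52 and 4.76 in WT at room temperature. All KO arrays lay below all WT arrays, in the cold by -1.30 ± 0.16 (log2 difference ± standard error, adjusted p = 0.00365) and at room temperature by -1.11 ± 0.16 (adjusted p = 0.00904). Where this probe set lies relative to the deleted part is not given. Ucp1, the heat-making protein of brown fat, lay between 11.55 and 12.95 on the 12 arrays, and Alb, the hepatocyte protein albumin, between 1.20 and 2.75. A list of 10 hepatocyte genes that holds Alb averaged 2.83 to 3.13 per array. Cyp2e1, also on that list, was high, at 10.2 to 11.9. Median signals per array were 2.63 to 2.83, and the correlation of 2 arrays of the same group, taken over probe sets that are not independent of each other, was 0.970 to 0.985. Muscle signal differed within every group, with means of 21 skeletal muscle genes of 4.45 to 8.01 in KO cold, 3.50 to 8.30 in KO at room temperature, 5.08 to 7.53 in WT cold, and 3.08 to 6.22 in WT at room temperature. A list of 10 neutrophil genes averaged 4.09 in KO cold replicate 3, against 1.77 to 2.44 on the other 11 arrays.

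By role there were 7 alpha subunits (Psma1 to Psma3 and Psma5 to Psma8), 8 beta subunits (Psmb1 to Psmb7 and Psmb11), the 3 immunoproteasome subunits, 6 ATPases (Psmc1 to Psmc6), 11 non-ATPase subunits, 5 other activators and inhibitors (Psme1 to Psme4 and Psmf1), 7 assembly factors (Psmg1 to Psmg4, Psmd5, Psmd9 and Psmd10) and the 2 genes named for a partner. The mean log2 signal was 5 or more for 42 of them. The other 7 were Psmb3, at 4.59 to 4.99, Psmg3, at 3.65 to 4.37, and 5 genes with every group mean under 4, for which no fold is given. These 5 were Psma5, Psmg4, Psmc3ip, Psma8, the alpha subunit of testis, and Psmb11, the beta subunit of thymus. Psma4 shares its probe set with another symbol and was not measured under the rule. Levels are not compared between genes, since probe sets differ in brightness for reasons of their sequence.

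**Figure D1:**
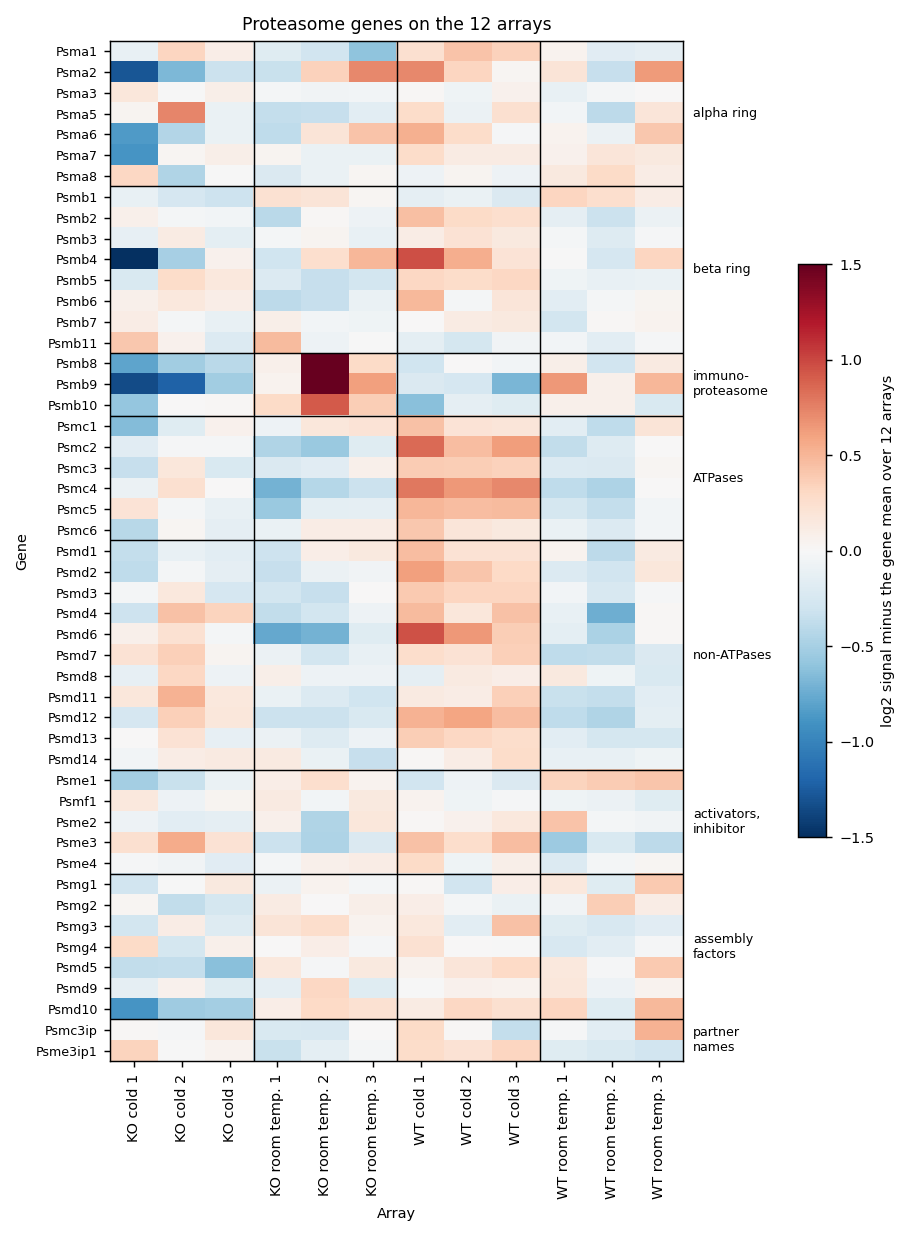
Each of the 49 genes (rows, ordered by role) on each of the 12 arrays (columns), as log2 signal minus that gene's mean over the arrays, with colours capped at 1.5 either way. WT cold arrays are mostly red in the ATPase and non-ATPase rows, while KO room temperature replicate 2 is dark red in Psmb8 and Psmb9, at 8.09 and 7.69.

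The first question was which proteasome genes responded to cold in each genotype. In KO, 4 of 49 genes rose (8.34% of all genes rose) and 7 fell (10.8% of all genes fell). In WT, 14 of 49 rose (9.39% of all genes rose) and 2 fell (7.98% of all genes fell). A gene counted as having passed where limma's p, adjusted by Benjamini-Hochberg over all 22180 genes, was under 0.05. In bulk tissue fewer cells of a type and less RNA per cell cannot be told apart. Bright genes passed more often than dim ones, so the shares among the 8475 genes of mean log2 signal 5 or more are given too. There, 4 of 42 members rose in KO against 16.7% of genes, and 14 of 42 rose in WT against 20.0% of genes. Of the same 42 members, 7 fell in KO against 20.6% of genes, and 2 fell in WT against 14.4% of genes. The KO cold and KO room temperature arrays did not overlap, with cold higher, for 12 of 49 genes (14.4% of all genes). The WT cold and WT room temperature arrays did not overlap in this way for 23 of 49 (18.8% of all genes). The median log2 difference of the 46 genes other than the immunoproteasome was 0.0011 in KO and 0.25 in WT, beside 0.0039 and -0.017 over all genes. With each array centred on its own median, which moves the median of all genes in KO to -0.12, the split was 1 higher and 8 lower in KO, and 10 higher and 2 lower in WT. With the mean of the muscle genes as a covariate the median was 0.00062 in KO and 0.40 in WT, with 5 higher and 8 lower in KO and 17 higher and 2 lower in WT. Other settings gave more rises in KO. With dim genes (mean log2 signal under 5) removed, 8 rose and 8 fell in KO, and 17 rose and 2 fell in WT. A trended and robust spread gave 7 higher and 8 lower in KO, and 16 higher and 2 lower in WT. Cyclic loess gave 6 higher and 7 lower in KO, and 11 higher and 2 lower in WT.

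The ATPases form the unfolding ring. Psmc4, which met the test with the smallest p in WT, had log2 signals of 9.48, 9.81 and 9.58 in KO cold, 8.86, 9.14 and 9.25 in KO at room temperature, 10.37, 10.22 and 10.30 in WT cold, and 9.19, 9.11 and 9.57 in WT at room temperature. The WT cold arrays stood above the other 9, and each KO cold array stood above each KO array at room temperature. The rise was 0.54 ± 0.16, adjusted p = 0.0298 in KO and 1.01 ± 0.16, adjusted p = 0.000921 in WT, 1.45-fold and 2.01-fold. Psmc2 had 6.75, 6.89 and 6.89 in KO cold, 6.47, 6.36 and 6.73 in KO at room temperature, 7.76, 7.38 and 7.54 in WT cold, and 6.55, 6.72 and 6.92 in WT at room temperature. Its WT cold arrays again lay above the other 9, and KO cold lay just above KO at room temperature. The difference was 0.32 ± 0.15 in KO, which did not pass (adjusted p = 0.172), and 0.83 ± 0.15, adjusted p = 0.00231 in WT. Psmc5 had 6.66, 6.43 and 6.35 in KO cold, 5.89, 6.31 and 6.32 in KO at room temperature, 6.95, 6.91 and 6.93 in WT cold, and 6.20, 6.10 and 6.41 in WT at room temperature, and it rose in WT (0.69 ± 0.15, adjusted p = 0.00628). In KO its difference was 0.30 ± 0.15 (adjusted p = 0.195). Psmc3 rose in WT as well (0.50 ± 0.15, adjusted p = 0.0389) and stood at -0.033 ± 0.15 in KO (adjusted p = 0.920). Psmc1 and Psmc6 did not pass in either genotype. Psmc1 stood at -0.35 ± 0.20 in KO and 0.39 ± 0.20 in WT, and Psmc6 at -0.21 ± 0.14 in KO and 0.36 ± 0.14 in WT. Counted over the ring, 1 of 6 rose in KO, where 16.7% of genes of mean log2 signal 5 or more rose. In WT 4 of 6 rose, where 20.0% of such genes did. The medians were 0.14 in KO and 0.60 in WT on the log2 difference scale.

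Among the genes that rose in WT cold, Psmc4, Psmd12, Psme3, Psmb2 and Psme3ip1 each had the smallest p of their role. Of these, the promoters of Psmc4, Psmd12 and Psme3 are shown. Each runs from 250 bases before to 50 bases after the RefSeq start on GRCm38.p6, on the strand of the gene, with 4 motifs in capitals on whichever strand they read: the antioxidant response core TGACNNNGC, the CCAAT box, the ETS site CCGGAAG and the cAMP response core TGACG. Psmc4 lies at chr7:28050043-28050342 (minus strand), Psmd12 at chr11:107479278-107479577 (plus strand) and Psme3 at chr11:101315963-101316262 (plus strand).
Psmc4: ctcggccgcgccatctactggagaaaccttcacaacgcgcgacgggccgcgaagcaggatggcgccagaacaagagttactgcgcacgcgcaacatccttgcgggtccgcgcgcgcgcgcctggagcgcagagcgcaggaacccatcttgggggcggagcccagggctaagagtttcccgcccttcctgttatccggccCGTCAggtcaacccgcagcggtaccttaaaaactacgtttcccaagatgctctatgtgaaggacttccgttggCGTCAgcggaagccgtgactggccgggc
Psmd12: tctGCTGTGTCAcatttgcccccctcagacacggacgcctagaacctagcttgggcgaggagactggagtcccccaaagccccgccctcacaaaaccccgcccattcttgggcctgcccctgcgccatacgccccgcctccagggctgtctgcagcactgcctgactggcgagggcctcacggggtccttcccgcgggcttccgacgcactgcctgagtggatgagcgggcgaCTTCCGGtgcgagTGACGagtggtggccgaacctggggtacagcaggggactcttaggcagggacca
Psme3: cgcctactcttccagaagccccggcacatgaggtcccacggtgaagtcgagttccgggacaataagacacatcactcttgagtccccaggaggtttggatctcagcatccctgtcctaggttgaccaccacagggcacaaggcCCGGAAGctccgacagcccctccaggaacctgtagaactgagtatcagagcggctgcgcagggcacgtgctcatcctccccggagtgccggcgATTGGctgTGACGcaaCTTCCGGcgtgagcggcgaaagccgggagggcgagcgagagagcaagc
Psmc4 carried the cAMP core in 2 places on the reverse strand and none of the other 3 motifs. Psmd12 carried the antioxidant core, the ETS site and the cAMP core. Psme3 carried the ETS site in 2 places, with a CCAAT box and a cAMP core. Windows were found for 41 of the 49 members, 45 windows in all, and 11 motifs were searched on both strands. The ETS site stood in 37.8% of the member windows and in 8.86% of all 32851 windows of that length. The cAMP core stood in 44.4% and 20.8%, the antioxidant core in 13.3% and 12.4%, and the CCAAT box in 35.6% and 37.4%. Counted by gene, 16 of the 41 members with a window had the ETS site, 19 the cAMP core, 16 the CCAAT box and 6 the antioxidant core. Of the 10 members with a window that rose in WT cold, these counts were 8, 6, 3 and 1. A match is a run of letters and not a site shown to be used.

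The non-ATPase subunits of the regulatory particle form its base and lid. Psmd12, a lid subunit, had log2 signals of 8.44, 9.05 and 8.87 in KO cold, 8.37, 8.37 and 8.46 in KO at room temperature, 9.21, 9.28 and 9.16 in WT cold, and 8.31, 8.24 and 8.54 in WT at room temperature. WT cold was above all other arrays, and KO cold overlapped KO at room temperature through replicate 1 alone. The difference was 0.38 ± 0.15, adjusted p = 0.113 in KO, short of the threshold, and 0.85 ± 0.15, adjusted p = 0.00235 in WT. Psmd6, another lid subunit, had 8.16, 8.31 and 8.05 in KO cold, 7.32, 7.37 and 7.89 in KO at room temperature, 9.04, 8.73 and 8.45 in WT cold, and 7.94, 7.60 and 8.09 in WT at room temperature. It rose in both genotypes with no overlap, by 0.65 ± 0.20, adjusted p = 0.0378 in KO and by 0.86 ± 0.20, adjusted p = 0.00949 in WT. Psmd11, which joins lid and barrel, rose by 0.48 ± 0.14, adjusted p = 0.0260 in KO and 0.48 ± 0.14, adjusted p = 0.0279 in WT. Psmd7, the lid partner of the deubiquitinase Psmd14, had 9.26, 9.41 and 9.08 in KO cold, 8.95, 8.77 and 8.93 in KO at room temperature, 9.31, 9.26 and 9.40 in WT cold, and 8.67, 8.68 and 8.83 in WT at room temperature. It rose in WT (0.60 ± 0.12, adjusted p = 0.00528) and stood at 0.36 ± 0.12 in KO (adjusted p = 0.0578), with no overlap of cold and room temperature in either genotype. Psmd13, a lid subunit, rose in WT (0.54 ± 0.12, adjusted p = 0.00705) with a difference in KO of 0.15 ± 0.12 (adjusted p = 0.445). Psmd2, a large base subunit that holds ubiquitin receptors and shuttles, and the lid subunit Psmd3 also rose in WT, by 0.55 ± 0.16, adjusted p = 0.0320 and 0.44 ± 0.14, adjusted p = 0.0481. In KO, Psmd2 stood at -0.023 (95% interval -0.37 to 0.32) and Psmd3 at 0.17 (95% interval -0.14 to 0.47). In all, 2 of 11 rose in KO and 7 of 11 in WT, beside 16.7% and 20.0% of genes of mean log2 signal 5 or more. The log2 difference was above 0 for 9 of the 11 in KO and for 11 in WT, beside 44.9% and 54.5% of such genes. Psmd14, which cuts ubiquitin off, did not pass (0.17 ± 0.14 in KO, 0.24 ± 0.14 in WT), and neither did the ubiquitin receptor Psmd4 (0.39 ± 0.23 in KO and 0.64 ± 0.23 in WT). Psmd1, the other large base subunit, stood at -0.18 ± 0.17 in KO and 0.37 ± 0.17 in WT, and the lid subunit Psmd8 at 0.056 ± 0.15 in KO and 0.083 ± 0.15 in WT.

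**Figure D2:**
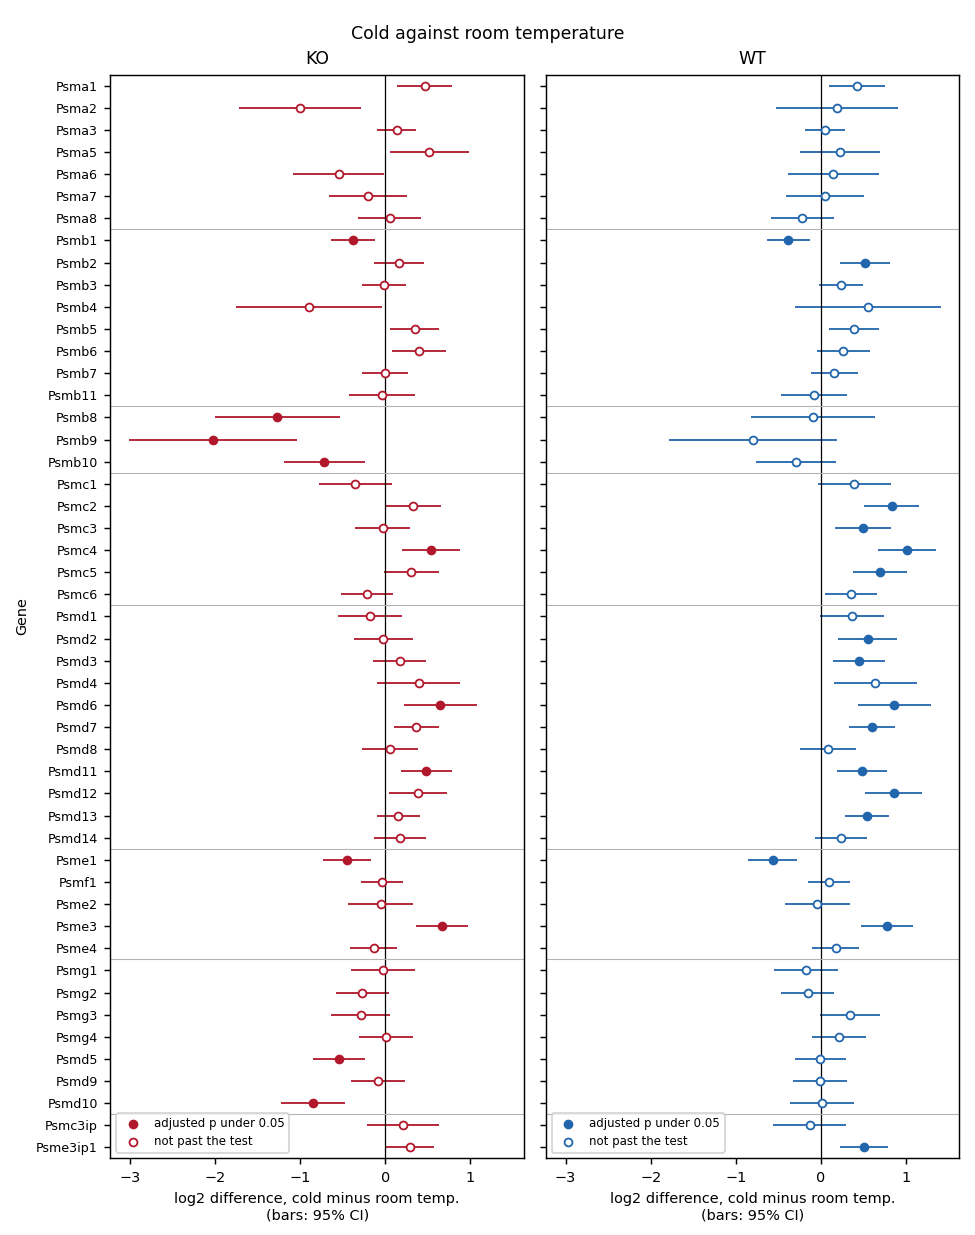
Log2 difference of cold minus room temperature for each of the 49 genes in KO (left) and WT (right), with 95% intervals, and filled points for an adjusted p under 0.05. The filled points right of 0 number 4 in KO and 14 in WT, mostly in the ATPase and non-ATPase rows.

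In the core barrel few genes passed the test. Of 7 alpha subunits, 0 passed in KO and 0 in WT, with 2 higher and 2 lower at an unadjusted p under 0.05 in KO (13.3% of all genes higher and 16.5% lower) and 1 higher and 0 lower in WT (14.8% of all genes higher and 14.1% lower). A second, dimmer probe set of Psma5, which the rule on brightness leaves out, passed in WT. It had a mean log2 signal of 2.20 and a difference of 1.36 (adjusted p = 0.0297). Psma1 had the smallest p of them in WT (0.42 ± 0.15, adjusted p = 0.0772), and its difference in KO was 0.46 ± 0.15 (adjusted p = 0.0515). Psma3 stood at 0.13 ± 0.11 in KO and 0.048 ± 0.11 in WT, and its 12 arrays lay within 9.34 to 9.63. Psma2 stood at -1.01 ± 0.33, adjusted p = 0.0506 in KO, the smallest p of the alpha subunits there, and at 0.19 ± 0.33 in WT. Among the 8 beta subunits other than the immunoproteasome, Psmb1, a structural subunit, fell in KO (-0.38 ± 0.12, adjusted p = 0.0394) and in WT (-0.38 ± 0.12, adjusted p = 0.0421). Psmb2, also structural, rose in WT (0.51 ± 0.14, adjusted p = 0.0202) and stood at 0.16 ± 0.14 in KO (adjusted p = 0.508). Psmb5, Psmb6 and Psmb7 carry the cutting sites of the standard barrel. Psmb5, the chymotrypsin-like one, had log2 signals of 11.001, 11.50 and 11.39 in KO cold, 11.03, 10.88 and 10.95 in KO at room temperature, 11.54, 11.50 and 11.54 in WT cold, and 11.17, 11.12 and 11.13 in WT at room temperature. WT cold lay above all room temperature arrays, while KO cold spread from the KO room temperature level up to the WT cold level. Its difference was 0.34 ± 0.13, adjusted p = 0.101 in KO and 0.39 ± 0.13, adjusted p = 0.0681 in WT, neither past the test. Psmb6, the caspase-like one, had 7.20, 7.29 and 7.23 in KO cold, 6.74, 6.78 and 7.03 in KO at room temperature, 7.61, 7.10 and 7.31 in WT cold, and 6.97, 7.10 and 7.17 in WT at room temperature. Its cold arrays lay above room temperature in KO (0.39 ± 0.14, adjusted p = 0.0820) and overlapped in WT (0.26 ± 0.14, adjusted p = 0.260). Psmb7, the trypsin-like one, had 8.53, 8.39 and 8.31 in KO cold, 8.502, 8.38 and 8.35 in KO at room temperature, 8.42, 8.54 and 8.56 in WT cold, and 8.14, 8.43 and 8.47 in WT at room temperature, and the arrays of all groups overlapped. Its difference was -0.0047 in KO (95% interval -0.28 to 0.27) and 0.16 in WT (95% interval -0.12 to 0.43).

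Other activators take the place of the regulatory particle. Psme3, a nuclear activator that works without ubiquitin, had log2 signals of 8.34, 8.66 and 8.32 in KO cold, 7.79, 7.64 and 7.89 in KO at room temperature, 8.54, 8.36 and 8.57 in WT cold, and 7.56, 7.87 and 7.71 in WT at room temperature. Every cold array lay above every room temperature array in both genotypes. It rose by 0.67 ± 0.14, adjusted p = 0.00508 in KO and by 0.78 ± 0.14, adjusted p = 0.00227 in WT, 1.59-fold and 1.72-fold. Psme1, a subunit of the interferon-induced activator, had 6.83, 7.01 and 7.24 in KO cold, 7.44, 7.60 and 7.40 in KO at room temperature, 7.05, 7.27 and 7.13 in WT cold, and 7.67, 7.72 and 7.76 in WT at room temperature. It fell in KO (-0.45 ± 0.13, adjusted p = 0.0283) and in WT (-0.57 ± 0.13, adjusted p = 0.00952), with cold below room temperature in every array of each genotype. Psme2, its partner in the same ring, did not pass, with 95% intervals of -0.44 to 0.33 in KO and -0.42 to 0.34 in WT. Psme4, a nuclear activator, and Psmf1, an inhibitor, did not pass in either genotype. Psme4 stood at -0.14 ± 0.13 in KO and 0.17 ± 0.13 in WT, and Psmf1 at -0.042 ± 0.11 in KO and 0.096 ± 0.11 in WT. Psme3ip1 rose in WT (0.51 ± 0.13, adjusted p = 0.0177).

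Assembly factors help subunits find their places and leave the finished particle. Psmd10, the chaperone known as gankyrin, had log2 signals of 6.505, 6.87 and 6.89 in KO cold, 7.496, 7.69 and 7.62 in KO at room temperature, 7.51, 7.71 and 7.63 in WT cold, and 7.71, 7.21 and 7.88 in WT at room temperature. The 3 KO cold arrays lay below the other 9. It fell with cold in KO (-0.85 ± 0.17, adjusted p = 0.00448), and its difference in WT was 0.016 (95% interval -0.36 to 0.39). Psmd5, a chaperone of the ATPase ring, had 6.65, 6.66 and 6.39 in KO cold, 7.17, 6.999 and 7.17 in KO at room temperature, 7.07, 7.19 and 7.31 in WT cold, and 7.18, 6.9999 and 7.41 in WT at room temperature. KO cold was again below the other 9 arrays, with a fall in KO (-0.54 ± 0.14, adjusted p = 0.0164) and a difference of -0.0049 in WT (95% interval -0.31 to 0.30). Over the 7 assembly factors, 2 fell and 0 rose in KO (10.8% of all genes fell and 8.34% rose), and 0 passed in WT. Psmd9, another chaperone of the ring, and Psmg1 and Psmg2, which pair to build the alpha ring, did not pass in either genotype. In KO they stood at -0.085, -0.026 and -0.27, and in WT at -0.011, -0.18 and -0.16. Psmd10 had the smallest p of the members that fell in KO. Its promoter is shown, at chrX:140956662-140956961 (minus strand, GRCm38.p6), with the same 4 motifs in capitals.
Psmd10: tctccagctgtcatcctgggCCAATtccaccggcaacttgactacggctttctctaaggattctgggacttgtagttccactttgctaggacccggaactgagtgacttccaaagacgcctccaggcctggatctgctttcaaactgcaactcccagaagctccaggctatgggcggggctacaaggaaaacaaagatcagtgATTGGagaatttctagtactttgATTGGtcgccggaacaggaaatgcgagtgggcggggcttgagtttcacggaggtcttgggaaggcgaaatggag
It carried the CCAAT box in 3 places and none of the other 3 motifs. Psmd5, which also fell in KO, had the cAMP core in its promoter, so the Psmd10 window does not stand for the genes that fell.

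Leaving out 1 array at a time, the 8 genes with the smallest p in WT (Psmc4, Psme3, Psmc2, Psmd12, Psmd7, Psmc5, Psmd13 and Psmd6) passed in 12 of 12 fits. In KO, Psmd10, Psme3 and Psmb9 passed in 12 of 12, Psmb8 in 11, Psmd5, Psmd11, Psmc4 and Psmb10 in 9, Psme1 in 8, Psmd6 in 6 and Psmb1 in 4. The count in KO was 5 without KO room temperature replicate 2 and 6 without KO cold replicate 2, beside 11 with all arrays. The count in WT was 9 without WT cold replicate 1 and 10 without WT room temperature replicate 2, beside 16. Of 15 heat shock genes measured, 13 rose in KO (8.34% of all genes rose) and 14 in WT (9.39% of all genes rose). Their list means were 7.95 (replicate 3) to 9.30 in KO cold and 7.16 to 7.51 in KO at room temperature. In WT the list means were 9.23 to 9.47 in the cold and 7.25 to 7.34 at room temperature. The part of the heat shock genes in the proteasome values was not tested. Averaged over both genotypes, which pools the arrays above, 16 members rose (12.9% of all genes) and 5 fell (14.3% of all genes), with 11 and 8 when each array was centred on its median. Among genes of mean log2 signal 5 or more, 26.0% rose and 25.9% fell. The 5 members that fell were Psme1, Psmb1, Psmb9, Psmd10 and Psmb10. Psma1, Psmb5, Psmb6 and Psmd4 did not pass in either genotype alone and rose in this average (0.44, 0.37, 0.33 and 0.52, adjusted p = 0.00772, 0.0116, 0.0306 and 0.0300).

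**Figure D3:**
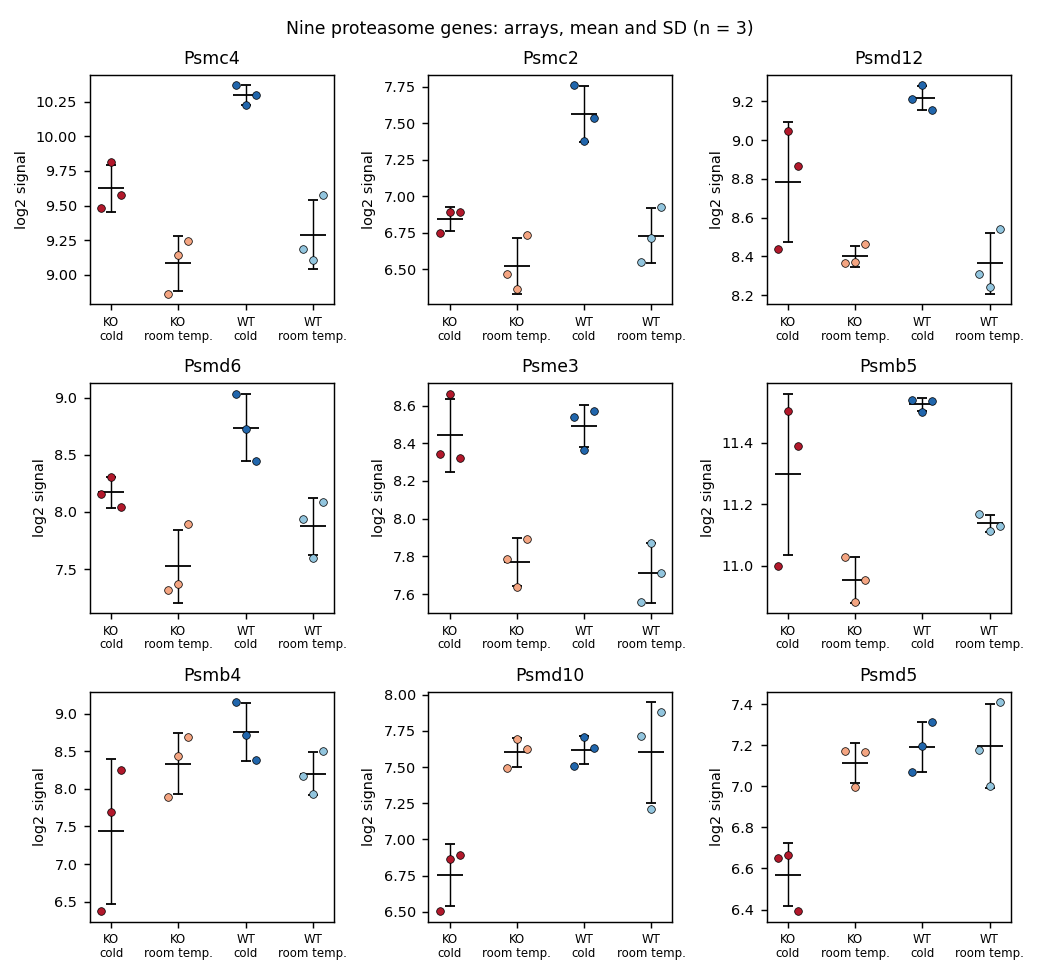
Log2 signal of 9 genes on each array, with points for arrays and lines for the group mean and SD (n = 3), each panel on its own axis that does not start at 0. Psmc4, Psmc2 and Psmd12 are highest in WT cold, Psme3 is high in both cold groups, and Psmd10 and Psmd5 are lowest in KO cold.

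The second question was whether KO differed from WT. At room temperature 0 of 49 members passed (0.550% of all genes did), with 2 of 49 higher and 0 lower at an unadjusted p under 0.05, beside 6.10% of all genes higher and 5.30% lower. The median of the 46 genes was 0.0013, beside 0.0085 over all genes. The groups did not overlap, with KO lower, for 5 of 49 members (7.97% of all genes), and with KO higher for 4 of 49 (1997 of all 22180 genes). Of the genes outside the immunoproteasome, Psmg3, an assembly factor of low signal, had the smallest p. It had log2 signals of 4.12, 4.19 and 3.98 in KO at room temperature and 3.75, 3.69 and 3.76 in WT at room temperature, and the groups did not overlap. The difference was 0.36 ± 0.16, adjusted p = 0.417. Psme1 stood at -0.24 ± 0.13, adjusted p = 0.540. The 95% intervals at room temperature were -0.38 to 0.38 for Psmd10, -0.54 to 0.12 for Psmc2 and -0.39 to 0.22 for Psmd5. These genes had the smallest p in the cold, where their differences, which carry their own error, were -0.86, -0.72 and -0.62. The interaction, which tests the cold difference against that at room temperature, did not pass for any of them (adjusted p = 0.282, 0.429 and 0.380). For Psmd6 the interval at room temperature was -0.78 to 0.079, and its difference in the cold was -0.57.

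In the cold 2 members were lower in KO and 0 were higher, while 0.550% of all genes were lower. Psmd10 averaged 6.75 ± 0.22 in KO cold and 7.62 ± 0.10 in WT cold (SD, n = 3 each), a difference of -0.86 ± 0.17, adjusted p = 0.0407. Psmc2 averaged 6.84 ± 0.09 in KO cold and 7.56 ± 0.19 in WT cold, a difference of -0.72 ± 0.15, adjusted p = 0.0495. Both calls were close to the threshold, and a second, dimmer Psmc2 probe set with a mean log2 signal of 3.32 stood at 0.078 (adjusted p = 0.899). Psmd10 passed in 2 of 12 fits that left out 1 array and Psmc2 in 1 of 12, and the count was 0 or 1 in every such fit. With the 6 cold arrays alone it was 0. Next by p came Psmd5 (-0.62 ± 0.14, adjusted p = 0.0657), Psmc4 (-0.67 ± 0.16, adjusted p = 0.0727) and Psmd2 (-0.63 ± 0.16, adjusted p = 0.0921), which did not pass, although KO cold lay below WT cold on every array for each of them.

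At an unadjusted p under 0.05, 18 of 49 members were lower and 0 higher, beside 8.32% of all genes lower and 6.10% higher. Of the brighter genes it was 18 of 42 members against 16.1%. The log2 difference was below 0 for 37 of those 42, against 61.3% of the brighter genes. KO cold did not overlap WT cold, and was lower, for 21 of 49 (11.1% of all genes). The median of the 46 genes was -0.21, beside 0.0096 over all genes and -0.088 over the brighter genes. It was -0.14 with cyclic loess and -0.15 with each array centred on the median of the brighter genes, with 35 rather than 39 of the 46 genes below 0 in each. By role, 6 of 6 ATPases were below 0 with no overlap, with a median of -0.52 and a range of -0.72 to -0.42. Of the 11 non-ATPases 10 were below 0, with a median of -0.28, and 6 had no overlap. The medians were -0.24 over 7 alpha subunits, -0.15 over 8 beta subunits, -0.19 over 7 assembly factors and -0.12 over the 5 other activators and inhibitor. These values share the WT cold arrays with the cold response in WT, so the ATPases and Psmd12, high in WT cold, enter both. The heat shock list was also below 0 in KO cold for 14 of 15 genes, 7 of them at an unadjusted p under 0.05 and 0 past the adjusted test, with array means of 8.94, 9.30 and 7.95 in KO cold and 9.47, 9.23 and 9.33 in WT cold. Its part in the proteasome values was not tested.

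Within the barrel a few genes had wide spreads in KO cold. Psmb4, a structural beta subunit, had log2 signals of 6.37, 7.69 and 8.24 in KO cold and 9.15, 8.72 and 8.38 in WT cold. KO cold replicate 1 was the lowest by more than 1 log2 unit, and no KO cold array reached a WT cold array. Psma2, an alpha subunit, had 6.43, 7.03 and 7.39 in KO cold and 8.43, 8.03 and 7.74 in WT cold, and Psma6 had 8.33, 8.74 and 9.09 in KO cold and 9.72, 9.46 and 9.16 in WT cold. Replicate 1 of KO cold was again the lowest, and again the groups did not overlap. The differences were -1.32 ± 0.39, adjusted p = 0.148 for Psmb4, -1.12 ± 0.33, adjusted p = 0.142 for Psma2 and -0.73 ± 0.25, adjusted p = 0.201 for Psma6, none past the test. Without KO cold replicate 1 they were -0.79, -0.86 and -0.54. Psma7, with 6.37, 7.28 and 7.35 in KO cold and 7.53, 7.38 and 7.38 in WT cold, was also lowest in that array (-0.43 ± 0.21, adjusted p = 0.382). The muscle genes averaged 8.01 in KO cold replicate 1, against 4.45 and 7.91 in the other KO cold arrays. Their part in these values was not tested. Psmd10 stood at -0.74 without that array (adjusted p = 0.0847).

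**Figure D4:**
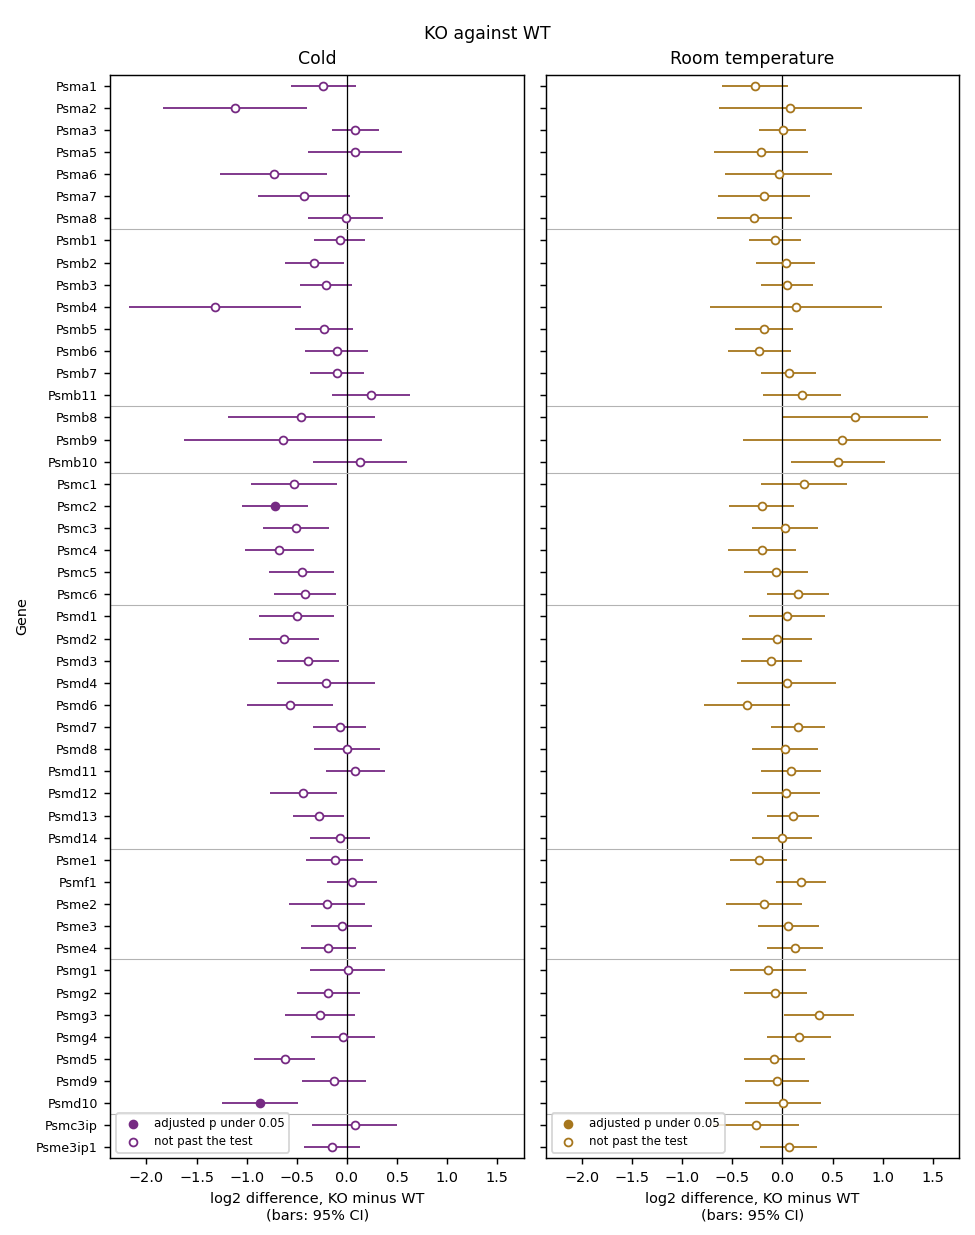
Log2 difference of KO minus WT for each of the 49 genes in the cold (left) and at room temperature (right), with 95% intervals, and filled points for an adjusted p under 0.05. In the cold most points lie left of 0 and 2 are filled, Psmc2 and Psmd10, while at room temperature the points lie around 0 and none is filled.

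Over both temperatures 0 of 49 passed (1.63% of all genes did), with 13 of 49 lower and 1 higher at an unadjusted p under 0.05, beside 7.51% of all genes lower and 7.18% higher. Of the brighter genes 13 of 42 members were lower, against 13.5%. Psmc2 (-0.46 ± 0.11, adjusted p = 0.0530) and Psmc4 (-0.44 ± 0.11, adjusted p = 0.0735) came closest, and the median of the 46 genes was -0.14, beside 0.0032 over all genes. The interaction asks whether the cold response itself differed between KO and WT. None of the 49 passed (0.0271% of all genes did), so no member was shown to respond differently. At an unadjusted p under 0.05, 13 of 49 had a lower cold difference in KO and 0 a higher one, beside 5.90% of all genes with a lower one. Of the brighter genes it was 12 of 42 against 9.18%. The interaction was below 0 for 36 of these 42, against 63.6% of such genes. Psmd10 had the smallest p (-0.87 ± 0.25, adjusted p = 0.282), followed by Psmc6 (-0.57 ± 0.20, adjusted p = 0.357), an ATPase, and Psmg3 (-0.63 ± 0.23, adjusted p = 0.366). All 6 ATPases were below 0, with a median of -0.52, and all 11 non-ATPases, with a median of -0.25. The medians of 7 alpha and 8 beta subunits were 0.038 and -0.10.

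The immunoproteasome subunits replace the standard cutting subunits in immune cells and after interferon. Psmb8, which replaces Psmb5, had log2 signals of 5.57, 5.83 and 5.95 in KO cold, 6.43, 8.09 and 6.64 in KO at room temperature, 6.06, 6.36 and 6.31 in WT cold, and 6.44, 6.06 and 6.49 in WT at room temperature. KO room temperature replicate 2 was far above all others, and the KO cold arrays were the lowest. Psmb9, which replaces Psmb6, had 4.002, 4.14 and 4.83 in KO cold, 5.39, 7.69 and 5.96 in KO at room temperature, 5.13, 5.09 and 4.67 in WT cold, and 6.0002, 5.43 and 5.85 in WT at room temperature, with the same array highest and KO cold and WT cold overlapping. Psmb10, which replaces Psmb7, had 6.95, 7.53 and 7.54 in KO cold, 7.82, 8.45 and 7.90 in KO at room temperature, 6.90, 7.39 and 7.34 in WT cold, and 7.60, 7.61 and 7.30 in WT at room temperature. KO cold lay below KO at room temperature in every array for all 3 (17.2% of all genes). All 3 fell with cold in KO, beside 10.8% of all genes and 20.6% of genes of mean log2 signal 5 or more. The differences were -1.27 ± 0.34, adjusted p = 0.0189 for Psmb8, -2.03 ± 0.45, adjusted p = 0.00745 for Psmb9 and -0.72 ± 0.22, adjusted p = 0.0365 for Psmb10. In WT 0 of 3 passed, at -0.090 ± 0.34, adjusted p = 0.905 for Psmb8, -0.79 ± 0.45, adjusted p = 0.283 for Psmb9 and -0.29 ± 0.22, adjusted p = 0.428 for Psmb10. Without KO room temperature replicate 2 the falls in KO were -0.75 for Psmb8 (adjusted p = 0.0175), -1.36 for Psmb9 (0.00791) and -0.52 for Psmb10, which no longer passed (0.147). Without KO cold replicate 1, Psmb8 and Psmb10 did not pass (0.0624 and 0.132). With the 6 arrays of the comparison alone none of the 3 passed in KO (0.0879 for Psmb8, 0.0519 for Psmb9 and 0.0973 for Psmb10), while Psmb9 passed in WT (0.0223). The interaction did not pass for any, at -1.18, -1.23 and -0.42 (adjusted p = 0.416, 0.530 and 0.653).

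KO against WT showed 0 of 3 past the test at either temperature, beside 0.550% of all genes at room temperature and 0.911% in the cold. At room temperature the log2 differences were 0.72 for Psmb8, 0.59 for Psmb9 and 0.55 for Psmb10 (adjusted p = 0.444, 0.688 and 0.354). Without KO room temperature replicate 2 these were 0.20, -0.078 and 0.36. In the cold they were -0.46, -0.64 and 0.13 (adjusted p = 0.586, 0.569 and 0.843). Lists of other cells and of interferon-induced genes moved with some of these arrays. The 16 interferon-induced genes averaged 5.10 to 5.57 in KO cold, 5.36 to 6.41 in KO at room temperature with 6.41 in replicate 2, 5.37 to 6.03 in WT cold, and 5.18 to 5.32 in WT at room temperature. This mean joins genes that went opposite ways. Gbp4 had 3.44, 3.33 and 3.09 in KO cold, 5.18, 7.61 and 5.33 in KO at room temperature, and 5.41, 4.94 and 4.79 in WT at room temperature. Cxcl10 had 6.47, 9.05 and 8.23, then 5.31, 5.89 and 4.70, and 4.84, 4.71 and 5.18 in the same groups. The 10 T cell genes averaged 2.85 to 3.22 in KO cold, 3.12 to 3.62 in KO at room temperature with 3.62 in replicate 2, 3.09 to 3.74 in WT cold, and 2.80 to 3.04 in WT at room temperature. The 12 macrophage genes averaged 6.33 to 7.14 in KO cold, 6.45 to 6.80 in KO at room temperature, 6.33 to 6.74 in WT cold, and 5.71 to 6.04 in WT at room temperature. Their part in these values was not tested.

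On mouse chromosome 17 Psmb9, Tap1, Psmb8 and Tap2 lie next to each other in this order, and Tap1 and Tap2 form the pump that carries proteasome peptides to class I molecules. Tap1 had log2 signals of 5.22, 5.72 and 5.53 in KO cold, 6.83, 8.36 and 6.75 in KO at room temperature, 5.89, 6.55 and 5.87 in WT cold, and 6.81, 6.24 and 6.85 in WT at room temperature, and it fell with cold in KO (-1.82 ± 0.37, adjusted p = 0.00425) with -0.53 ± 0.37 in WT (adjusted p = 0.392). Tap2 fell in KO as well (-1.30 ± 0.29, adjusted p = 0.00704) with -0.69 ± 0.29 in WT (adjusted p = 0.133). KO room temperature replicate 2 was the highest array for both. Of 8 measured genes of class I antigen processing, 4 fell and 0 rose in KO (10.8% of all genes fell and 8.34% rose), and 0 passed in WT. The others that fell in KO were Tapbp (-1.01), a bridge to the pump, and Erap1 (-0.59), which trims peptides. B2m, the light chain of class I molecules, did not pass in KO (-0.18 ± 0.12, adjusted p = 0.372). The promoter of Psmb9 is shown because its difference with cold in KO was the furthest from 0 of the 49 genes. It lies at chr17:34187281-34187580 (minus strand, GRCm38.p6), with the same 4 motifs in capitals.
Psmb9: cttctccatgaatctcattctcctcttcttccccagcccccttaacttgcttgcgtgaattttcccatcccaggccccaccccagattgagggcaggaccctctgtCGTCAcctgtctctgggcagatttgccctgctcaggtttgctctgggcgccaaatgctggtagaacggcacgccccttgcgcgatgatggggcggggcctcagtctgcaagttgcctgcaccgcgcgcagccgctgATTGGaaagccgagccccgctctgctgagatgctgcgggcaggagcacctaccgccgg
It carried 1 cAMP core and 1 CCAAT box, both on the reverse strand, and neither of the other motifs.

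**Figure D5:**
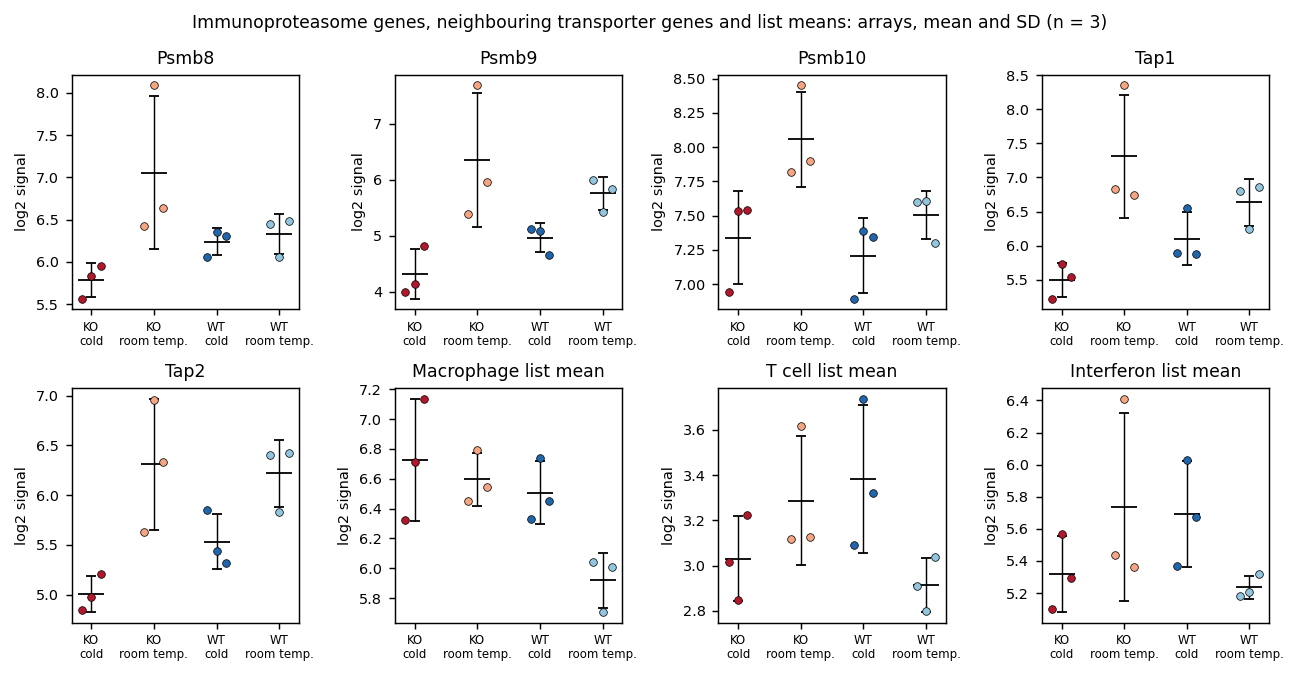
Log2 signal on each array for Psmb8, Psmb9, Psmb10, Tap1 and Tap2, and the mean over 12 macrophage, 10 T cell and 16 interferon-induced genes, with points for arrays and lines for the group mean and SD (n = 3), on axes that do not start at 0. KO room temperature replicate 2 is the highest array for the 5 genes, and KO cold has the lowest mean for 4 of them.

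Genes that work with the proteasome were taken from a list of 32 symbols, aliases included, of which 21 were measured. With cold, 7 rose and 3 fell in KO, where 16.7% of genes of mean log2 signal 5 or more rose and 20.6% fell. In WT 7 rose and 3 fell, where 20.0% of such genes rose and 14.4% fell. Zfand2a, a heat-induced zinc finger protein that binds the particle, rose by 1.23 ± 0.20, adjusted p = 0.00109 in KO and 1.22 ± 0.20, adjusted p = 0.00124 in WT. Nploc4 and Ufd1, which together feed ubiquitin-tagged proteins to the segregase Vcp, also rose. Nploc4 had 10.91, 10.97 and 10.69 in KO cold, 10.34, 10.32 and 10.33 in KO at room temperature, 11.07, 10.98 and 11.10 in WT cold, and 10.06, 10.23 and 10.12 in WT at room temperature, with every cold array above every room temperature array. Ufd1 had 8.80, 9.07 and 9.11 in KO cold, 8.56, 8.62 and 8.52 in KO at room temperature, 9.54, 9.501 and 9.60 in WT cold, and 8.59, 8.34 and 8.74 in WT at room temperature, with WT cold above KO cold on every array. The rise of Ufd1 was 0.43 ± 0.13, adjusted p = 0.0407 in KO and 0.99 ± 0.13, adjusted p = 0.000374 in WT, and that of Nploc4 0.53 ± 0.11, adjusted p = 0.00650 in KO and 0.91 ± 0.11, adjusted p = 0.000244 in WT. The shuttle protein Ubqln1 rose in both genotypes (0.71 ± 0.13, adjusted p = 0.00195 in KO and 1.01 ± 0.13, adjusted p = 0.000248 in WT), as did Txnl1, a thioredoxin-like protein bound to the regulatory particle (0.75 ± 0.12, adjusted p = 0.000840 in KO and 0.83 ± 0.12, adjusted p = 0.000504 in WT). Uchl5, a deubiquitinase of the particle, fell in both genotypes (-0.68 ± 0.16, adjusted p = 0.0114 in KO and -0.77 ± 0.16, adjusted p = 0.00661 in WT), as did Fbxo7, an F-box protein that binds Psmf1 (-0.76 ± 0.13, adjusted p = 0.00123 in KO and -0.48 ± 0.13, adjusted p = 0.0198 in WT), and Ubqln2, a shuttle protein (-0.49 in KO and -0.43 in WT). The other genes that rose were Rad23b, a shuttle protein, in KO (0.42) and WT (0.80), Ubqln4, a further shuttle protein, in KO (0.65, with 0.14 and adjusted p = 0.669 in WT), and Uba6, a ubiquitin-activating enzyme, in WT (0.55, with 0.52 and adjusted p = 0.0560 in KO).

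Nfe2l1 did not pass with cold, at -0.28 ± 0.16, adjusted p = 0.287 in KO and -0.061 ± 0.16, adjusted p = 0.864 in WT. Its log2 signals were 8.44, 9.11 and 8.95 in KO cold, 8.99, 9.14 and 9.22 in KO at room temperature, 9.19, 9.04 and 9.12 in WT cold, and 9.13, 9.08 and 9.32 in WT at room temperature, and KO cold replicate 1 was the lowest. Pomp, the maturation factor of the barrel, stood at -0.045 ± 0.15, adjusted p = 0.890 in KO and 0.34 ± 0.15, adjusted p = 0.161 in WT. KO against WT had 0 of the 21 past the test at room temperature and 0 in the cold, where 7 were lower and 1 higher at an unadjusted p under 0.05. All 21 are among the brighter genes, of which 16.1% were lower. Ufd1 had the smallest p there (-0.55 ± 0.13, adjusted p = 0.0816), followed in size of p by Ngly1 (0.45 ± 0.14, adjusted p = 0.159), the deglycosylase that activates Nfe2l1.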

How the data were processed

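Brown fat RNA of 12 arrays was analysed. The deposited values are log2 signals per probe set. Per the submitters' processing notes the tools were oligo, RMA and limma, and no version is given there. RMA makes the arrays' distributions equal at the level of single probes, which would remove a shift common to most genes. Per the labels, cDNA was made from 400 ng of RNA. The number of arrays, 3 per group, limits the precision, and arrays of the same group also differed in muscle signal.

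Of 41345 probe sets, 23521 carried 1 symbol, 1814 several and 16010 none. The brightest per gene over the 12 arrays was kept (1082 genes had several), giving 22180 genes, and dim genes were not removed. Group means were estimated from all 12 arrays by limma 3.58.1 under R 4.3.3 (lmFit, eBayes, two-sided), with Benjamini-Hochberg adjustment over all genes within each of 7 comparisons. The code was tested on simulated data.

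Genes named in full were the cutting and immunoproteasome subunits, members past the test (at most the 8 of smallest p per comparison), the 4 of smallest p where fewer passed, and the member of smallest p in a role. Further genes were Zbtb7b, Ucp1, Alb, Nfe2l1, Pomp and up to 4 of smallest p among other pathway genes. Members and list genes outside this rule, such as Psma7 and B2m, were named after their values were seen. The members and lists were chosen with earlier results of these data known. Promoter windows came from RefSeq (GRCm38.p6). Alternatives tried were other probe set rules, a filter on low signal, cyclic loess, centring, a trended and robust spread, the arrays of a comparison alone, a replicate block, the muscle list mean as a covariate and fits that each left out 1 array. Centring on the median of genes of mean log2 signal 5 or more was chosen after seeing the data.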

Additional observations from a re-analysis of the deposited data

How the results depend on the processing

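No alternative gave a member past the test in KO against WT at room temperature or in the interaction. The 2 members lower in KO cold became 1 with probe sets averaged per gene, with every probe set on its own, with cyclic loess, with each array centred on its median and with centring on the brighter genes, 5 when dim genes (mean log2 signal under 5) were removed, 4 with a trended and robust spread, 3 with the muscle list mean as a covariate, and 0 with the arrays of the comparison alone. Over both temperatures the count of 0 became 3 with dim genes removed, 2 with a trended and robust spread and 1 with centring on the brighter genes. In KO cold against room temperature the count of 11 became 3 with those arrays alone, 16 with dim genes removed and 15 with a trended and robust spread. The median in KO against WT in the cold ranged from -0.24 with each array centred on its median to -0.14 with cyclic loess, over the settings that keep all arrays. The WT cold median of 0.25 became 0.40 with the muscle covariate. The cause was not tested, except that the arrays alone leave fewer samples and the signal filter fewer genes. The arrays alone were not run for averaged comparisons and the interaction.

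Over the 12 fits that each left out 1 array, the counts were 0 to 0 and the medians -0.088 to 0.046 for KO against WT at room temperature, 0 to 1 and -0.30 to -0.19 in the cold, 0 to 1 and -0.16 to -0.10 over both temperatures, and 0 to 0 and -0.30 to -0.17 for the interaction. For cold against room temperature they were 5 to 12 and 0.0011 to 0.082 in KO, 9 to 17 and 0.22 to 0.36 in WT, and 15 to 22 over both genotypes. Signs turned only for differences that did not pass: Psmc2 at room temperature with probe sets averaged (0.0080), the interaction of Psmb5 with centring on brighter genes (0.040), and Psmb7 with cold in KO with cyclic loess (0.0074) and with centring on brighter genes (0.026). Leaving out 1 array, Psmb7 with cold in KO ranged from -0.065 to 0.045 (0.040 without KO room temperature replicate 1, 0.0065 without KO cold replicate 2), Psmb7 in KO against WT at room temperature from -0.039 to 0.12, and Psmb9 there from -0.078 without KO replicate 2 to 1.07. In the cold Psmb6 ranged from -0.22 to 0.035 and Psmb10 from -0.026 to 0.33. Psmb8 with cold in WT ranged from -0.23 to 0.0012, and the interaction of Psmb5 from -0.15 to 0.10.

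The replicate numbers did not pair the arrays, since deviations of same-numbered arrays correlated at -0.54 to 0.45, with 6 of 18 over 0.1, beside -0.56 to 0.63 and 15 of 36 for other pairs. With the replicate number as a block the count in KO against WT in the cold was 0, and it was 10 in KO cold, 14 in WT cold and 20 over both genotypes.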

Other observations

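The dimmer Psmc2 probe set, whose mean signal was 3.32, stood at 0.33 with cold in KO (adjusted p = 0.298) and at 0.48 in WT (adjusted p = 0.123). Psmg2, an assembly factor of the alpha ring, has a second probe set with a mean signal of 1.72, against 7.0011 for the brighter one. Both probe sets of Psma5, an alpha subunit of the barrel, were dim, at 2.27 and 2.20. With cold they stood at 0.52 (adjusted p = 0.125) and 0.22 (adjusted p = 0.778) in KO, and at 0.23 (adjusted p = 0.558) and 1.36 (adjusted p = 0.0297) in WT.

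Of the motifs not described above, the GC box GGGCGG stood in 53.3% of the 45 member windows and in 35.7% of all windows, and a second ETS form, GGAAGTG, which can overlap the ETS site above, in 17.8% and 11.004% of them. The E-box CACGTG stood in 8.89% and 7.15%, the interferon response core GAAANNGAA in 15.6% and 8.56%, and the heat shock core GAANNTTC in 6.67% and 7.86%. Of the 10 members with a window that rose in WT cold, 7 had the GC box and 2 the second ETS form. The E-box was in 2 of these 10, the interferon response core in 1 and the heat shock core in 0. The extended antioxidant motif TGACTCAGC and the full cAMP site TGACGTCA, which contains the cAMP core, were in 0 member windows and in 0.454% and 1.79% of all windows.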
